A study of Mus musculus with 54 samples.

Results

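The striatum libraries of 18 mice differed widely in Slc17a7, the gene for the vesicular glutamate transporter VGLUT1. The libraries were ranked by Slc17a7 in CPM, the read count scaled to a library total of 1000000 reads on genes, and the 6 highest and the 6 lowest were chosen by that value alone, with genotypes pooled. These 12 of the 18 striatum libraries are described here, out of 54 libraries in the series. Because Slc17a7 chose them, its values and all differences between the 2 ends are given as a description, with no test. Over all 18 striatum libraries, Slc17a7 was tested only by genotype, sex and litter, which the ranking did not use.

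The mice were C57BL/6 at 8 weeks of age. Of these, 10 were Mbd5+/GT, which carry 1 allele with a gene trap in an intron of Mbd5 that lowers expression without abolishing it, and 8 were wild type (WT). Each mouse gave 1 library from cortex, 1 from striatum and 1 from cerebellum. The 6 highest libraries held 4 Mbd5+/GT and 2 WT mice, and the 6 lowest held 3 of each. Both ends held 4 females and 2 males. Of the highest, 4 came from litter 3 and 1 each from litters 1 and 2. Of the lowest, 4 came from litter 1 and 1 each from litters 2 and 3. Litter 1 was all female and litter 2 all male, so that sex and litter cannot be told apart between those litters. Between 26130088 and 32110274 reads per striatum library were counted on genes, so that depth differed little. Mitochondrial genes took 4.64% to 6.76% of them at the high end and 5.18% to 7.77% at the low end. Mbd5 itself was at 25.7 to 43.8 CPM (median 37.4) in the 10 Mbd5+/GT and 38.2 to 62.2 (median 46.4) in the 8 WT striatum libraries. Among the 12 libraries, the one of mouse M752 was labelled as a repeat, and in the middle ranks the striatum library of M751 was.

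VGLUT1 loads glutamate into synaptic vesicles and is the main vesicular glutamate transporter of the excitatory projection neurons of the neocortex and hippocampus. Striatal projection neurons are GABAergic and use the vesicular inhibitory amino acid transporter VGAT, encoded by Slc32a1. Cortical axons fill the striatum with VGLUT1 protein, but the transcript stays mostly in the cell bodies in the cortex. Slc17a7 lies on the forward strand of chromosome 7 from 45163949 to 45176142 (GRCm38).

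Among the highest, Slc17a7 was at 1055 CPM in mouse M756, 905 in M754, 892 in M753, 841 in M759, 752.9 in M755 and 733 in M768. Among the lowest it was at 370 CPM in M761, 364 in M760, 237 in M752, 224 in M762, 148 in M758 and 14.04 in M764. The highest libraries were close to one another, and M764 stood well below the rest, with 409 reads. The 18 cortex libraries ranged from 489 to 1272 CPM with a median of 821, so all 6 highest striatum libraries lay within the range of the cortex. The median of the highest was 106% of the cortex median and that of the lowest was 28.1%. The limits of the ends were narrow at the top, where the last member had 733 CPM and the next library 731, and wider at the bottom, where they had 370 and 458.

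**Figure D1:**
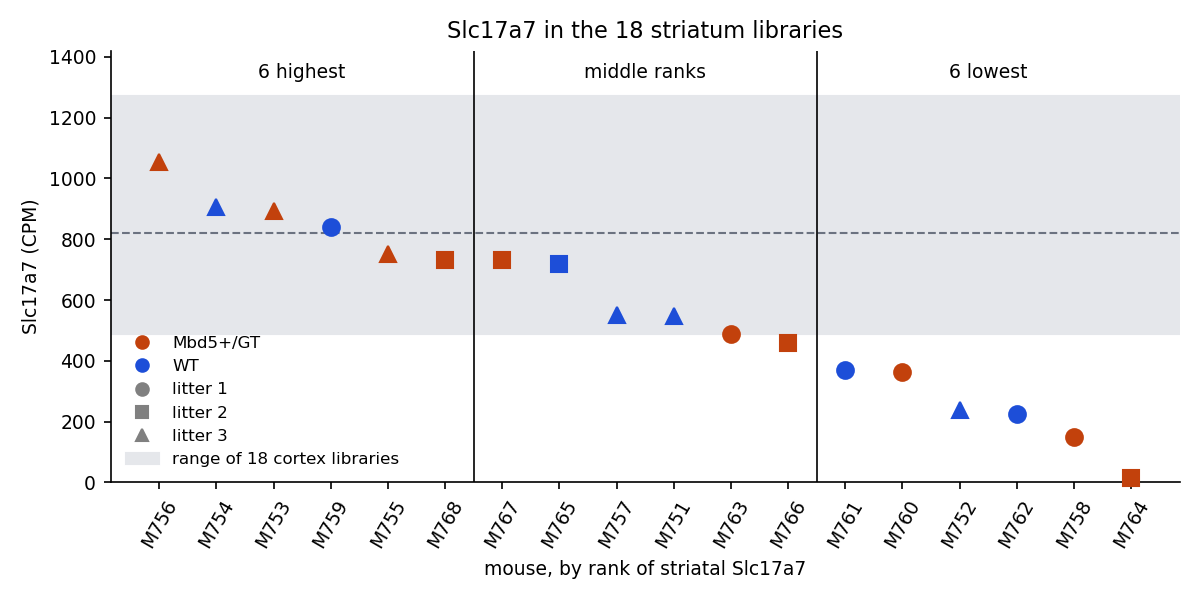
Slc17a7 (CPM) in each of the 18 striatum libraries, ordered by rank, with genotype as colour and litter as symbol. The grey band spans the 18 cortex libraries (489 to 1272 CPM) and the dashed line is their median of 821 CPM, and none of the 6 lowest libraries reaches the band.

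The labelled region was checked against 24 genes known from striatal projection neurons, among them the dopamine receptors Drd1 and Drd2, Adora2a and Ppp1r1b. Their summed level was 828 to 4298 CPM in the cortex libraries. In the highest striatum libraries it was 1180 to 8158 CPM (median 3984), and in the lowest 1725 to 14762 CPM (median 7569). Of the striatum libraries, 6 lay within the range of the cortex: M756, M754, M753 and M755 of the highest, M763 of the middle ranks and M761 of the lowest. The upper limit of that range was set by the cortex libraries of M752 (4298 CPM), M761 (4206) and M765 (4012), against a cortex median of 1689. M754 lay below that median and M761 near it, whereas M753 (4115 CPM) and M755 (3853) lay just under the limit. Results without these 6 striatum libraries are given below.

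The library of M754 was farthest from the label. It had 3.0 CPM of Drd2, 12.4 of Drd1 and 59.4 of Ppp1r1b, where the other 5 highest libraries had 37.0 to 93.9 CPM of Drd2. It also had 171 CPM of Cdhr1, 78.1 of Doc2g, 80.6 of Th and 41.1 of Eomes, and Cdhr1 was at 25.1 CPM or less in the other 17 striatum libraries. Cdhr1, Doc2g, Eomes and, in its interneurons, Th are known from the olfactory bulb. M754 also had the highest level of Gad1, which encodes a GABA synthesis enzyme, at 719 CPM. These genes and Drd1 and Ppp1r1b were chosen after their values were seen.

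At the low end, M761 had only 18.4 CPM of Drd2 but 164 CPM of Zic1, 220 of Baiap3 and 81.1 of Dlk1. M763 of the middle ranks had 162 CPM of Zic1, 177 of Baiap3 and 82.5 of Dlk1. In the libraries of M764 and M752, by contrast, these genes were low (Zic1 at 19.3 and 9.7 CPM), and Drd2 was highest of all, at 206 and 187 CPM. Baiap3 and Dlk1 were chosen after their values were seen. The 6 lowest libraries thus held both the highest summed striatal list of the 18 (14762 CPM in M764) and the lowest but 1 (1725 CPM in M761).

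The libraries of M758 and M762 carried thalamic marker genes. Slc17a6, which encodes VGLUT2, the transporter of thalamic glutamatergic neurons, was at 150 and 95.2 CPM there, and Tcf7l2, a thalamic transcription factor, at 65.9 and 42.3. The other 16 striatum libraries had at most 34.4 CPM of Slc17a6 and 9.1 of Tcf7l2. M758 also had 72.7 CPM of Pmch, the precursor of melanin-concentrating hormone of hypothalamic neurons, against 3.9 CPM or less elsewhere in the striatum. Pmch was chosen after its values were seen.

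**Figure D2:**
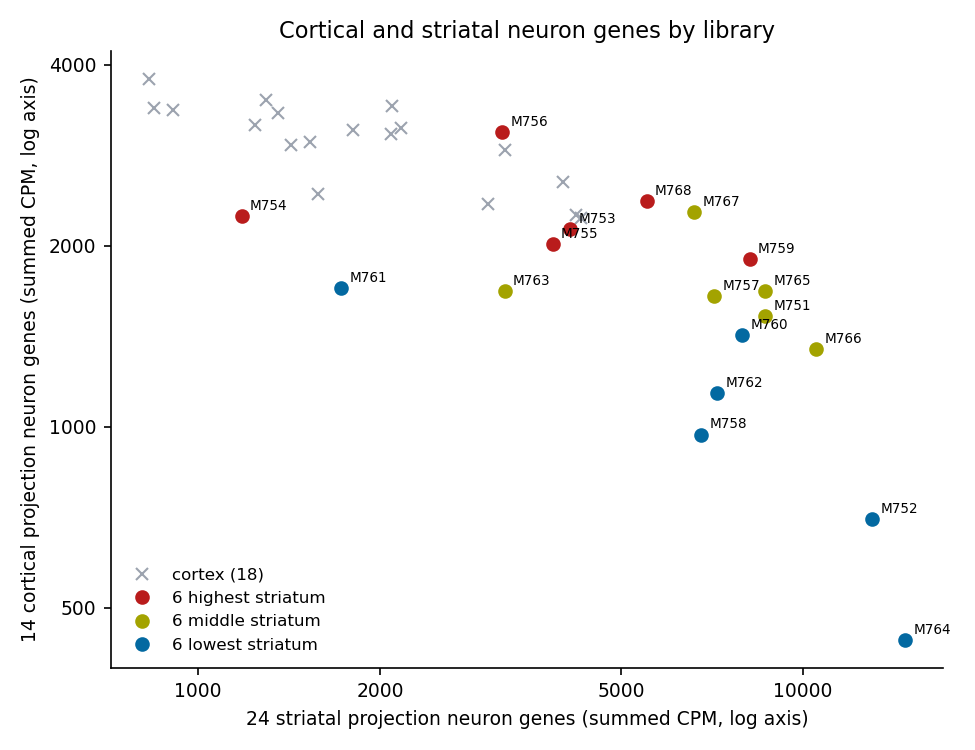
Summed CPM of 14 cortical projection neuron genes (vertical) against 24 striatal projection neuron genes (horizontal) in the 18 cortex and 18 striatum libraries, both on log axes. M764 and M752 lie at the lower right with little cortical and much striatal signal, whereas M754, M761 and 4 others lie within the range of the cortex on the horizontal axis.

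A gene was counted as apart when all 6 of its highest libraries lay on one side of all 6 of its lowest, on the log2 CPM scale with a prior count of 2. The filter asked for over 4 reads in 6 or more of the 12 libraries. Of the 18321 genes that passed it, 298 were apart and higher (1.63% of all tested) and 62 were apart and lower (0.338%) at the high end, Slc17a7 left out. With TMM-normalized CPM the split was 300 and 116. Without the library of M761, 720 were higher and 202 lower, without M768 497 and 119, and without M754, M759 or M752 96, 130 and 198 were lower. The median difference over all tested genes was 0.01 on the log2 scale.

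Transcription factors and synaptic genes of cortical excitatory neurons were higher at the high end, and no other list had as many genes apart. Of 14 cortical projection neuron genes, all 14 had a higher mean at the high end, with a median log2 difference of 1.74, and 11 were apart. Without the 6 libraries within the cortex range, which leaves M759 and M768 at the high end, the median was 1.89. Among the genes apart were Slc30a3, Neurod2, Neurod6, Emx1, Sv2b, Nrn1, Nptx1, Rtn4r, Lingo1 and Cck, and those that overlapped were Mef2c, Bhlhe22 and Vsnl1.

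Slc30a3 encodes ZnT3, which loads zinc into glutamatergic vesicles, and was at 56.3 to 96.9 CPM (median 75.2) at the high end and at 1.48 to 51.6 CPM (median 13.1) at the low end. Neurod2, a factor of excitatory neuron differentiation, was at 43.2 to 69.9 CPM (median 67.4) and at 1.17 to 37.9 CPM (median 14.4). Neurod6, a related factor, was at 32.7 to 75.9 CPM (median 48.8) and at 0.89 to 27.2 CPM (median 12.1). The medians of Slc30a3 and Neurod2 were 5.7-fold and 4.7-fold higher at the high end, against 3.8-fold for Slc17a7. In M764, the library with the least Slc17a7, both also had their lowest value.

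Several of the largest differences at the high end were in genes outside the list. Adam33, a metalloprotease, was at 5.21 to 29.1 CPM against 0.58 to 4.86. Dkkl1, which starts 31377 bases beyond the end of Slc17a7, was at 10.4 to 19.1 against 0.34 to 7.21. The hexokinase relative Hkdc1 was at 7.47 to 18.4 against 0.89 to 4.36, and Rtn4rl2, a Nogo receptor relative, at 9.47 to 20.2 against 0.21 to 8.10. Padi6, Trbc2 and Gm11549 were also among the 10 largest, with log2 differences of 3.15, 2.60 and 2.66. All 10 had a mean of at least 1 CPM, and Padi6 reached at most 2.64 CPM.

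Some genes at the high end lay above their level in cortex. Padi6, a member of the peptidylarginine deiminase family, was at 0.89 to 2.64 CPM in the highest striatum libraries and at 0.06 to 0.80 CPM in the 18 cortex libraries, without overlap. Rprm and Trbc2 had medians of 51.1 and 9.47 CPM there, 154% and 164% of their cortex medians. None of the 3 passed the test between the regions in the mice of the middle ranks described below (adjusted p = 0.054, 0.999 and 0.87, edgeR).

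Not all cortical genes followed Slc17a7, and the layers differed. Of 10 layer 6 genes, 8 had a higher mean at the high end, with a median of 0.68. Rprm, expressed in layer 6 corticothalamic neurons, was apart at 45.3 to 68.0 CPM against 6.62 to 30.8, and Tbr1, the layer 6 transcription factor, just overlapped, at 51.4 to 121 against 1.27 to 56.5. Cplx3, a complexin of subplate-derived neurons, was at 12.1 to 43.7 against 1.72 to 24.8. Of 8 layer 5 genes only Ldb2 was apart (27.8 to 42.1 against 15.8 to 26.9 CPM), and Fezf2, which specifies subcerebral neurons, overlapped at 17.4 to 35.2 against 2.64 to 21.1. None of 8 upper-layer genes and none of 5 layer 4 genes was apart, and their medians were 0.31 and -0.05. Without M761, 1 upper-layer and 2 layer 5 genes were apart, and without M759 or M760, 2 layer 6 genes.

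Set against the cortex, the layer lists held their order in both ends. In the highest striatum libraries the summed upper-layer genes had a median of 62.5% of the median cortex library, layer 4 genes 65.2%, layer 5 genes 84.6% and layer 6 genes 129%. In the lowest libraries the medians were 50.5%, 65.8%, 78.5% and 97.6%. In each of the 6 highest libraries the layer 6 genes were above the cortex median (104.5% to 151%). The libraries of the middle ranks were nearly as high, at 95.0% to 142.6% (median 125.4%). Of these 10 genes, Tbr1 was higher in cortex than in striatum in the mice of the middle ranks (log2 0.89, adjusted p = 0.0039, edgeR). Tbr1 closely followed Slc17a7, which chose these mice, so the p of Tbr1 is given as a description. Syt6 and Tle4 were lower (log2 -1.14 and -0.42, adjusted p = 0.0044 and 0.027, edgeR), and were named after their values were seen. The number lower was 5 without M763 and 1 without M765, M757, M751 or M766.

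**Figure D3:**
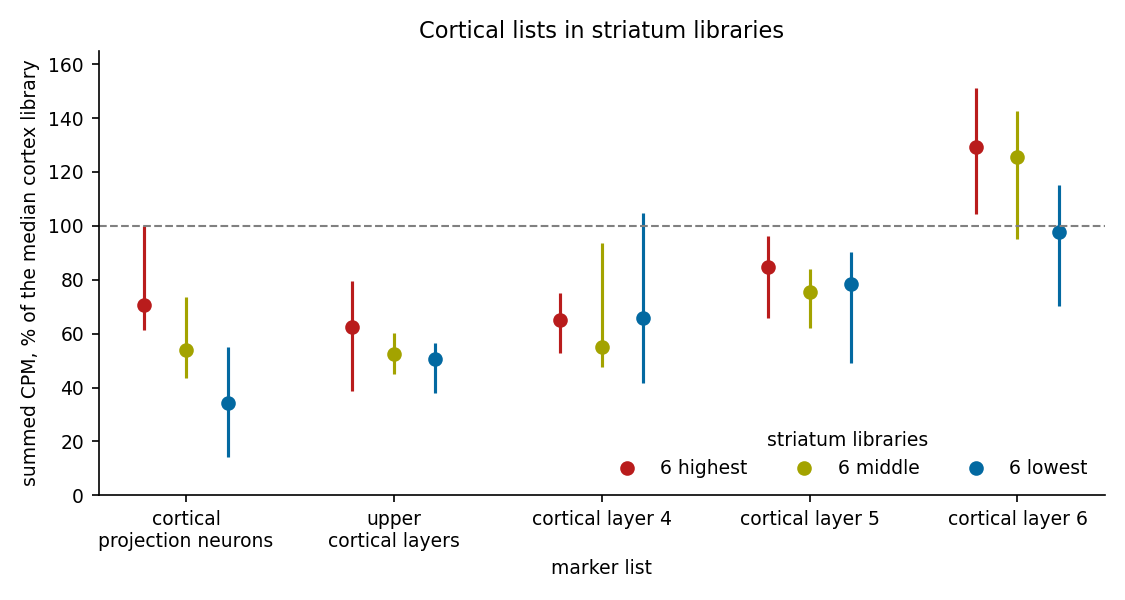
Summed CPM of 5 cortical marker lists in the highest, middle and lowest striatum libraries as percent of the median cortex library, with the median as a point and the range of 6 libraries as a line. Layer 6 genes lie at 104.5% to 151% in the highest libraries and upper-layer genes at 38.8% to 79.7%.

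Genes of cholinergic and basal forebrain neurons were lower at the high end. Of 7 genes of septum, pallidum and cholinergic neurons all 7 had a lower mean, with a median log2 difference of -2.40, and 4 were apart. Lhx8, a cholinergic fate factor, was at 0.28 to 4.82 CPM (median 2.05) against 5.75 to 17.2 (median 8.34). Nkx2-1, which patterns the ventral forebrain, was at 0.25 to 4.10 against 4.88 to 8.64. Gbx1, at -2.78 the largest difference of the list, overlapped. Without the 6 libraries within the cortex range, the list median was -1.17 and 5 genes were apart. In that setting 727 of all 19498 genes tested were apart and lower.

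Other genes of cholinergic transmission lay on the same side. Slc18a3, the vesicular acetylcholine transporter, and the choline transporter Slc5a7 were apart, at 0.25 to 5.64 against 6.495 to 13.98 CPM and at 0.49 to 12.8 against 14.49 to 35.4. Chat, choline acetyltransferase, overlapped at 0.14 to 13.2 against 10.3 to 29.5. Slc18a3 lies within Chat on the same strand, so their reads may not be fully separate. Slc10a4, a transporter relative found on cholinergic vesicles, was at 0.56 to 10.1 against 13.0 to 26.1. AI606473, Gm19461 and Six3os1 were also among the 10 largest, with log2 differences of -2.68, -2.23 and -1.96. Six3os1 overlaps Six3 and Gm19461 overlaps Plekha6, each on the other strand. The strand setting of the counts is not stated, and reads of such pairs cannot be told apart.

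Striatal projection neuron genes were lower on average at the high end but overlapped widely. All 24 had a lower mean, with a median log2 difference of -0.91, and only Isl1 was apart (0.39 to 9.50 against 10.2 to 16.0 CPM). Drd2 was at 3.01 to 93.9 CPM (median 50.1) against 18.4 to 206 (median 97.1). Six3, a transcription factor of indirect-pathway neurons, differed by -1.93. The number apart was 4 without M761 and 2 without M759. It was 5 without the 6 libraries within the cortex range, where 727 of all 19498 genes tested were apart and lower. It was 19 with only Mbd5+/GT libraries, where 1227 of 18703 genes were, and 1 with only WT libraries, where 1074 of 19169 were. These settings hold fewer libraries, which overlap less often. Without the 6 libraries within the cortex range the list median was -0.46. Those libraries were set aside by their low summed level of this same list. The choice itself moves this median, so no conclusion is drawn from it.

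Over the 18 libraries the log2 Slc17a7 level correlated with the summed cortical list with r = 0.917 (Spearman's rho 0.901) and with the summed striatal list with r = -0.480 (rho -0.544). Without M764 and M758, the libraries farthest from the median, r was 0.884 and -0.375. These libraries share the ranking gene, and in libraries of fixed total a higher share of some genes lowers others.

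The other marker lists differed in size and spread. All 10 choroid plexus genes had a lower mean at the high end (median -2.41), but none was apart. Without M752, 4 of them were apart, with a median of -3.08. Ttr, the most abundant choroid plexus transcript, was at 6.08 to 98.5 CPM in the highest libraries. In the lowest it reached 3904 and 3941 CPM in M762 and M758 and was 6.66 in M752. The 6 thalamic genes had a median of -1.12, the 7 ependymal genes -0.76, the 7 hippocampal genes -0.59 and the 12 oligodendrocyte genes -0.31, with none apart. Without M752, 2 hippocampal genes were apart and lower, and without M761, 1 thalamic gene.

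The remaining non-neuronal lists and the claustrum had medians of either sign. These were -0.07 for 10 astrocyte, -0.03 for 10 microglial, -0.03 for 9 endothelial, 0.43 for 9 meningeal, 0.60 for 4 claustrum and 0.00 for 5 erythrocyte genes, and none of these genes was apart, except 1 endothelial gene without M758. All 12 immediate early genes had a higher mean at the high end (median 0.44) and all overlapped, for example Fos at 16.8 to 64.5 against 10.9 to 39.6 CPM. Among 12 GABA interneuron genes (median 0.24) none was apart. Without M761, 3 were apart and higher, without M752 1 was higher and without M755 1 was lower. Without the 6 libraries within the cortex range, which leaves M759 and M768 at the high end, 5 were higher and 2 lower. In that setting 2070 of all 19498 genes tested were apart and higher and 727 lower. Of the 12 interneuron genes, 7 had a higher mean at the high end and the others did not, with differences from -0.69 to 2.10. Their summed level was lower at the high end by median, at 1073.6 against 1275.5 CPM. The neuropeptides Vip and Cort, of cortical interneurons, were higher and nearly did not overlap. They were at 20.2 to 40.3 against 1.30 to 22.1 CPM and at 6.11 to 10.4 against 0.21 to 7.07.

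**Figure D4:**
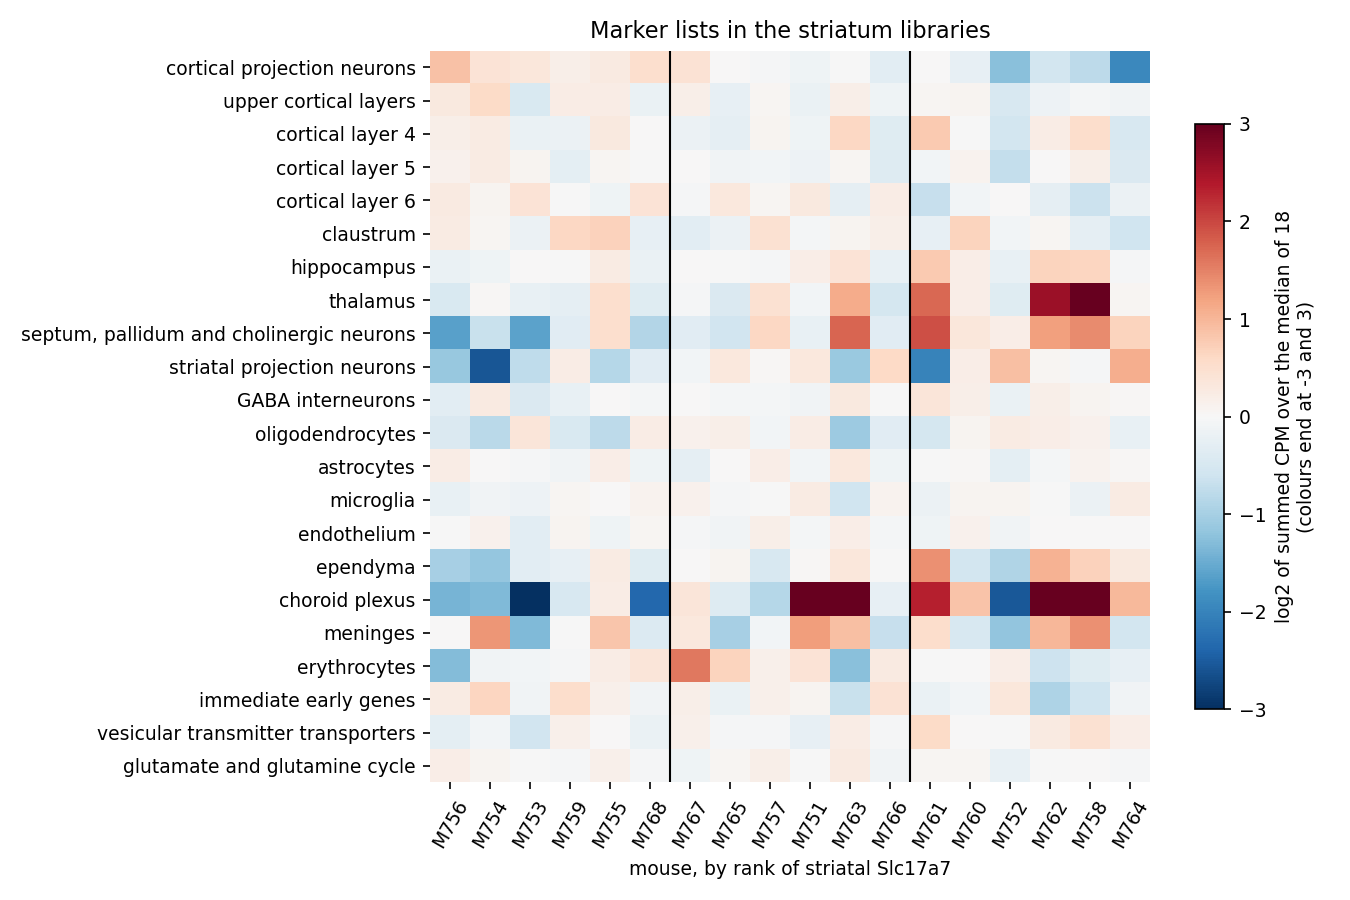
Summed CPM of 22 marker lists in each striatum library as log2 of the value over the median of the 18, with the libraries in order of Slc17a7. Choroid plexus genes reach the upper end of the colour scale in M751 and M763 of the middle ranks and in M762 and M758 of the lowest. They reach its lower end in M753 of the highest.

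The vesicular transporters were compared per kilobase of exon. At the high end Slc17a7 had a median of 161 CPM per kilobase, Slc32a1 40.9, Slc17a6 1.73 and Slc17a8 (VGLUT3) 1.03. At the low end the medians were 42.7, 67.5, 5.39 and 2.34. The order of Slc17a7 and Slc32a1 by median was thus turned between the ends. Of 6 transporter genes beside Slc17a7, Slc30a3 was apart and higher and Slc18a3 apart and lower. In the 12 genes of glutamate and glutamine handling the median was -0.02, and only Grm2, an autoreceptor of glutamate terminals, was apart (18.2 to 89.5 against 4.08 to 18.1 CPM).

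Among 14880 genes with at least 1 CPM on average, 60 had a correlation above 0.9 with Slc17a7 over the 18 libraries. The 10 most alike were Rtn4rl2 (r = 0.983), Bmp3, Neurod6, Gm11549, Tbr1, Rspo2, Slc30a3, Neurod2, Vxn and Emx1 (r = 0.964). Bmp3 is a bone morphogenetic protein and Rspo2 a Wnt agonist. Without M764 and M758 the r of these 10 was 0.873 to 0.942. The 5 most opposed were Acly, ATP citrate lyase, Cish, G6pdx, Slc8a3 and Slc41a1, with r between -0.804 and -0.761. Acly was apart with a narrow range in each end, at 166 to 193 CPM against 227 to 274. G6pdx overlaps Ikbkg on the other strand, so its level is uncertain.

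To compare these differences with the cortex itself, cortex and striatum were tested in the 6 mice of the middle ranks, which share no library or mouse with the ends. Of 18620 genes tested with edgeR's quasi-likelihood method, 1927 (10.3%) were higher and 1863 (10.0%) lower in cortex at an adjusted p under 0.05. The 2 libraries of a mouse come from the same animal, and with the mouse as a block 1066 were higher and 1037 lower. Without M751, M767, M766 or M765, 1307, 1755, 2256 and 2462 genes passed, so the number rests in part on single mice. Slc17a7 itself set the striatum libraries of the middle ranks, so its difference of 0.63 (log2) is given with no test. Genes that follow Slc17a7 are touched by the same choice, so their p-values and counts in this fit are a description.

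Of the 14 cortical projection neuron genes, 10 were higher in the cortex of these mice. This count was 6 to 11 when each mouse was left out and 8 with the block. The cortical list follows Slc17a7, so its count is a description. Of the 24 striatal genes, 19 were lower (15 to 19 when each mouse was left out, and 19 with the block). Other cell types differed as well: 11 of 12 oligodendrocyte genes (8 to 12 when each mouse was left out) and 7 of 7 ependymal genes were lower in cortex, and 5 of 9 meningeal genes were higher (3 or 4). The part of these cell types in the neuronal differences was not tested. None of the 7 cholinergic and basal forebrain genes passed. The genes with the smallest p were A830036E02Rik, Vip, Serpini1, which encodes neuroserpin, Asb13 and F13a1 on the cortical side. On the striatal side they were Car9, a carbonic anhydrase, Ppp1r32, Odf4, Shb and Ttc12. Serpini1 was higher in cortex by 1.11 (SE 0.14, adjusted p = 0.0018) and Car9 differed by -2.15 (SE 0.22, adjusted p = 0.0012).

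Across genes the regional difference and the difference between the ends ran together. The 1893 genes higher in cortex had a median high minus low difference of 0.22, positive for 82.9%. The 1859 genes lower in cortex had a median of -0.20, positive for 22.1%, and the 14337 others 0.01, positive for 51.3%. The correlation was 0.463 over 18089 genes (rho 0.421), which are not independent replicates. Without the 6 striatum libraries within the cortex range the medians were 0.11 and -0.08, positive for 65.7% and 41.6%. Those libraries were set aside by their level of striatal genes, so the choice itself acts on this difference.

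The genes that were apart were described in the same way. Of the 298 higher ones, 134 (45.0%) were higher in cortex, which is 7.08% of the genes higher in cortex, 5 were lower and 159 were neither. Of the 62 lower ones, none was higher in cortex and 12 (19.4%) were lower, which is 0.646% of those. Rspo2 and Trbc2 were among the 298 but were not called between the regions (0.29 and 0.09, adjusted p = 0.22 and 0.87, edgeR). In bulk tissue, more cells of a type and more RNA per cell cannot be told apart.

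**Figure D5:**
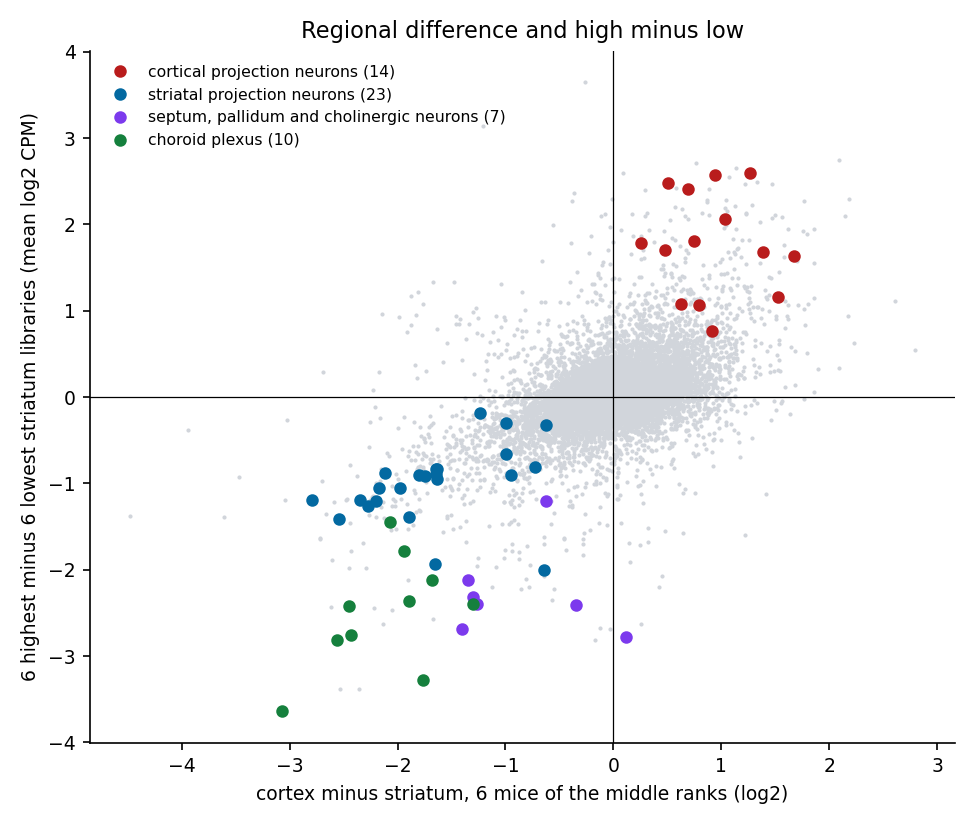
For genes with at least 1 CPM on average, the log2 difference of cortex minus striatum in 6 mice of the middle ranks (horizontal) against the mean log2 CPM difference of the 6 highest minus the 6 lowest striatum libraries (vertical), with 4 marker lists in colour. The 14 cortical genes lie in the upper right, the 23 striatal genes at this level in the lower left, and the cholinergic and choroid plexus lists below -1.2 on the vertical axis.

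The cortex and cerebellum libraries of the 12 mice were not used to rank them, and were compared to see whether the ends differ beyond the striatum. In cortex 0 of 18445 genes passed the adjusted threshold in edgeR, with 2142 (11.6%) at an unadjusted p under 0.05, and 91 passed in DESeq2. Without mouse M764, 61 genes passed in edgeR, of which 47 were lower in the mice of the high end. Slc17a7 in cortex was at 782 to 1272 CPM (median 1004) in the mice of the high end and at 489 to 1126 (median 697) in those of the low end (log2 difference 0.51, adjusted p = 0.38). The ranges overlapped.

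Cholinergic and basal forebrain genes, low in the striatum of the high end, were on the same side in the cortex libraries of these mice, without passing the adjustment. Of the 7 cholinergic and basal forebrain genes, 6 were lower at an unadjusted p under 0.05, with adjusted p of 0.32 to 0.38 in edgeR. This count was 6 with each mouse left out in turn and 6 with litter as a term. Nkx2-1 was at 0.04 to 0.87 CPM (median 0.36) in cortex at the high end and at 0.49 to 4.75 (median 2.48) at the low end, and Chat at 0.25 to 4.60 against 2.73 to 17.7. Zic1 was the exception, with medians of 31.8 and 31.9 CPM. The levels were low and the ranges overlapped.

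Of the 14 cortical projection neuron genes, 7 were higher in the cortex of mice of the high end at an unadjusted p under 0.05, among them Neurod6 (log2 0.54, SE 0.17) and Neurod2 (0.44, SE 0.18), with adjusted p between 0.35 and 0.42 for all 7 in edgeR. The count was 3 with litter as a term and 2 to 11 when each mouse was left out. It was 11 without M764, 2 without M768, M761, M752 or M758, 3 without M753 and 4 without M754. Of the 24 striatal genes, 5 were lower and 0 higher at an unadjusted p under 0.05, and the median was -0.92. That count was 19 without M759, 2 or 3 without M756, M754, M753, M755, M768, M761 or M752, and 1 with litter as a term. The cortex libraries of M752 and M761 stood apart at the low end, with summed striatal lists of 4298 and 4206 CPM against 1528 to 2089 in the other 4, and with the lowest cortical lists of the 12 (2222 and 2249 CPM).

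Of 9 endothelial genes, 6 were also higher in the cortex of the high end at an unadjusted p under 0.05 (median 0.39), 5 to 8 when each mouse was left out and 2 with litter as a term. Their part in the difference of the cortical list was not tested. With litter as a term 702 genes had an unadjusted p under 0.05, and the part of litter in the difference was not tested further.

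The cerebellum libraries of M755 and M754 stood apart. Zic1, a transcription factor of granule cells, was at 43.5 and 325 CPM there against 616 to 960 CPM in the other 10, and Slc17a7 at 40.5 and 209.5 against 258.5 to 484.6. Mbp, which encodes myelin basic protein, was at 13840 and 8034 CPM against 1901 to 3879.

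In cerebellum 0 of 18196 genes passed in edgeR, 1099 (6.04%) had an unadjusted p under 0.05, and 2 passed in DESeq2. Slc17a7, which cerebellar granule cells express, was at 40.5 to 463 CPM (median 401) in mice of the high end and at 259 to 485 (median 421) in the others (log2 -0.31, adjusted p = 0.72). Of 12 oligodendrocyte genes 9 had an unadjusted p under 0.05 and were higher at the high end (adjusted p = 0.55, edgeR). That count was 0 with litter as a term, 1 without M755, 2 without M754, 4 without M760 or M752 and 5 without M764. Of 10 microglial genes 6 were also higher at an unadjusted p under 0.05 (median 0.58), 0 to 8 when each mouse was left out, with 0 without M755, M760 or M762, 1 without M754, M752 or M764 and 2 without M761. Without both M754 and M755, 0 genes passed in edgeR, 162 had an unadjusted p under 0.05, none of the 12 oligodendrocyte and 10 microglial genes among them, and the Slc17a7 difference was 0.08.

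Striatal Slc17a7 was then compared by the labels that the ranking did not use, with exact 2-sided permutation tests adjusted over 5 comparisons. It was at 14.04 to 1055 CPM (median 610) in the 10 Mbd5+/GT and 224 to 905 (median 549) in the 8 WT mice (log2 difference -0.36, exact p = 0.72, adjusted p = 0.90). Splits within litters gave an exact p of 0.69. Females and males had medians of 519 and 633 CPM (exact p = 0.65, adjusted p = 0.90).

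Litter 1 had a median of 367 CPM, litter 2 of 717 and litter 3 of 752.9. Litters 1 and 3 gave the lowest p (log2 -0.88, exact p = 0.071, adjusted p = 0.35). Litters 1 and 2 differed by 0.22 and litters 2 and 3 by -1.10 (exact p = 0.93 and 0.32, adjusted p = 0.93 and 0.81). Mouse M764 decided the sign of several of these: without it the genotype difference was 0.17, the sex difference -0.24 in place of 0.43, and the differences of litter 2 from litters 1 and 3 turned as well. The difference of litters 1 and 2 also turned without M759. No comparison by genotype, sex or litter passed the threshold, and the ranges of the groups overlapped in each.

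Mbd5, on the forward strand of chromosome 2 from 48949508 to 49325405 (GRCm38), did not follow Slc17a7. It was at 29.8 to 55.0 CPM (median 38.1) at the high end and 33.8 to 46.8 (median 40.6) at the low end, with a mean log2 difference of -0.04. Part of Mbd5 overlaps Orc4 on the other strand and the pseudogene Gm13509 on the same strand, so the level of Mbd5 is uncertain. With log2 Slc17a7 as a term in the fit of genotype over all 18 striatum libraries, the Mbd5+/GT minus WT difference of Mbd5 was -0.44 (log2, SE 0.10, unadjusted p = 0.00042), with an adjusted p of 0.74 in edgeR. Of 18545 genes 0 passed, with 1223 (6.59%) at an unadjusted p under 0.05.

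Without the Slc17a7 term 0 genes passed and 1009 had an unadjusted p under 0.05, and with DESeq2 0 passed and 1380 had one. Without the repeated libraries of M751 and M752 0 passed in edgeR and 431 had one. Without the 6 libraries within the cortex range 0 passed, 618 had an unadjusted p under 0.05, and Mbd5 differed by -0.63. Of the variance of log2 Slc17a7, 4 surrogate variables estimated from these same 18 striatum libraries took up 67.9%. They took up 79.7% for the cortical, 92.3% for the striatal, 73.5% for the choroid plexus and 69.7% for the thalamic list. The share that 4 variables would take up by chance was not computed.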

How the data were processed

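RNA-seq of cortex, striatum and cerebellum from 18 mice was used, 54 libraries in all. The deposited values are raw counts per gene. The authors checked reads with FastQC 0.10.1, aligned them with STAR 2.4.2 to GRCm38 and took STAR's gene counts. There were 47069 gene rows, and 92 ERCC spike-ins were left out. Of the gene identifiers, 46488 were matched to a symbol. Positions came from a GENCODE annotation of GRCm38.

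The members, marker lists and named genes were chosen with earlier results of these data known. Named were at most 4 genes a list by the size of the difference, the 10 largest differences each way among genes apart with at least 1 mean CPM, the 10 highest and 5 lowest correlations with Slc17a7, and for fits Slc17a7, Mbd5 and the 5 smallest p each way. Other names are said to be chosen later or complete a short list, and some genes that the rule names are not reported here.

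Genes were tested if over 4 reads were counted in 6 or more of 12 libraries (8 or more of 18), with edgeR 4.0.16 (TMM, robust quasi-likelihood, Benjamini-Hochberg over all genes, R 4.3.3), with DESeq2 1.42.0 as an alternative. Surrogate variables came from sva 3.50.0. SEs were taken from the log2 fold change and its F value. On simulated data for 6 cortex libraries against 6, with 200 of 18253 genes changed 2-fold, 93.5% were found with 17 false calls. The changed genes were drawn only from genes with more reads, and all genes varied independently. The share found therefore does not carry over to genes of low level or to libraries with shared differences between genes. Cortex and striatum libraries of 1 mouse are paired by the animal, and their deviations correlated with a median of -0.02 (-0.15 to 0.24). All 153 pairs of striatum libraries differed by more than counting noise (chi-square per gene from 15.6, median 86.6). Each mouse gave 1 library a region, so p-values within 1 region measure the spread between mice. The fit of cortex against striatum without the block took the 2 libraries of a mouse as separate. Its p-values, also those given for single genes, measure the spread between libraries.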

Additional observations from a re-analysis of the deposited data

Results flagged for a closer look

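Of 73 groups of libraries looked at, 5 held a library far from the others by Dixon's ratio at the 95% level, where chance gives about 1 in 20. M752 had the lowest summed level of the glutamate and glutamine genes in the low striatum libraries, 5158 CPM against a group median of 6054. In cortex, Drd2 was at 28.6 CPM in M759 against a median of 7.43 in the mice of the high end. In cerebellum, M761 stood apart at the low end in Drd2 (2.61 CPM) and Chat (1.12 CPM). At the high end, Chat was at 18.01 CPM in the cerebellum of M755, against a median of 0.30. ERCC spike-ins, which no comparison used, took up to 0.728% of the counts of a striatum library.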

How the results depend on the processing

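The counts of genes apart (298 higher, 62 lower) depend on how many libraries stand at each end, since fewer libraries overlap less often: 997 and 292 with 5 against 5, 12 and 4 with 9 against 9, 1277 and 1227 with only Mbd5+/GT libraries, 2926 and 1074 with only WT libraries, and 2070 and 727 without the 6 libraries within the cortex range. TMM gave 116 lower genes and leaving out the repeated library of M752 198. Leaving out each library gave 310 to 720 higher and 68 to 202 lower genes. The medians of the cortical list (1.34 to 2.00), of the striatal list (-1.36 to -0.58) and the Slc17a7 difference (1.75 to 2.70) kept their sign. Between cortex and striatum, 1307 to 4769 genes passed when each mouse was left out, against 3790. Taking the mouse as a replicate block gave 2103. In the cortex of the ends 91 genes passed with DESeq2 and 0 to 61 when each mouse was left out. In cerebellum 2 passed with DESeq2. With a mouse left out, striatal Slc17a7 differed by -0.52 to 0.17 between genotypes, -0.24 to 0.62 between sexes, -0.89 to 0.54 between litters 1 and 2, -1.13 to -0.63 between litters 1 and 3 and -1.42 to 0.0085 between litters 2 and 3. The causes were not tested. The alternatives with each mouse left out, with litter as a term, without the 6 libraries and without M754 and M755 in cerebellum were chosen after seeing the data. Depth was similar in all striatum libraries, and its effect was not tested.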
